A study of Mus musculus with 12 samples.

Results

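Fibrinogen is made of 3 kinds of chain, Aα, Bβ and γ, encoded by the genes Fga, Fgb and Fgg. The RNA of these genes was followed in whole mouse kidney with and without Alport syndrome, a hereditary kidney disease caused by defects in the type IV collagen of the glomerular basement membrane. The 3 genes are 3 of the 19505 gene symbols that could be given to 1 or more of 22206 probe sets on the array. Each was measured by 1 probe set with that symbol. The genes were chosen by their symbol, and they were selected on their values in these same samples, so the values of the chains below are a description and no test of the chains is given.

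The series held 12 samples of whole kidney RNA, 3 in each of 4 groups, hybridised to Affymetrix Clariom S arrays, from mice stated to be 16 weeks old. One group was wild type (labelled WT) and was given vehicle. The other 3 groups carried the genotype labelled COL4A5 nonsense (G5X) hemi, a premature stop in the X-linked gene for the α5 chain of type IV collagen, and were given vehicle, losartan or metformin. Losartan, a blocker of the angiotensin II type 1 receptor, was in the drinking water at 125 µg/mL in weeks 6 to 11 and 250 µg/mL in weeks 12 to 20, per the labels' protocols. Metformin, a glucose-lowering drug, was given by the same route over the same weeks at 2.5 mg/mL and then 5 mg/mL. The stated dosing thus runs past the stated age, and the protocol calls losartan co-administered, while the titles give losartan and metformin as separate groups; the groups here follow the titles. No wild type mice on either drug are among the samples. Separate mice are not stated for the samples, and p-values therefore refer to variation among these 12 samples, part of which could be technical.

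Fibrinogen circulates in plasma as a dimer in which both arms carry all the chains, and thrombin cuts it to fibrin, the fibre of a clot, which plasmin later dissolves. Hepatocytes make most plasma fibrinogen. It is an acute-phase protein: cytokines of the interleukin-6 family raise transcription of its genes through STAT3, with C/EBP factors acting at the promoters. Injured kidney tubule cells are also known to transcribe the fibrinogen genes, and leukocytes bind fibrinogen through the integrin αMβ2.

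The 3 genes lie side by side on mouse chromosome 3, and Fgb is read in the opposite direction to the other two. The sequences just before each start are shown because these promoters are the place where the interleukin-6 family is known to act on the chains together. They are the 250 bases upstream of the start in RefSeq annotation of GRCm38.p6, written 5′ to 3′ on the gene's strand, at chr3:83025903-83026152 for Fga (plus strand), chr3:83049864-83050113 for Fgb (minus strand) and chr3:83007474-83007723 for Fgg (plus strand). Capitals mark CTGGGA, the core of the interleukin-6 response element described for fibrinogen genes.
Fga promoter: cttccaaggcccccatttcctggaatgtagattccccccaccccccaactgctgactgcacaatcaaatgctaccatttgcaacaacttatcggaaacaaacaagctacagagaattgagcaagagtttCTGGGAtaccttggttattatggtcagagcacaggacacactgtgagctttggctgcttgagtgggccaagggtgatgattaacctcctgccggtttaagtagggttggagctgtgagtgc
Fgb promoter: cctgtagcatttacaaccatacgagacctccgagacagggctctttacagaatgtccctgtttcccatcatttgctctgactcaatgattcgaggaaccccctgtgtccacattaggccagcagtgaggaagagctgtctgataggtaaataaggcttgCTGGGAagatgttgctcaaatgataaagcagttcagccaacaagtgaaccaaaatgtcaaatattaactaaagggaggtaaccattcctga
Fgg promoter: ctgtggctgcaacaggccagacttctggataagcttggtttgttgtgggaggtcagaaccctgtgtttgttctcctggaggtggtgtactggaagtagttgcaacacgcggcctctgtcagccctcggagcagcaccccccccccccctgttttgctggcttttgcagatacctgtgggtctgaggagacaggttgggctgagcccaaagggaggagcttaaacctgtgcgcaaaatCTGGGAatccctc
CTGGGA occurred once in each of the 3 windows on the gene's own strand, searched on both strands, at 121 to 116 bases before the start in Fga, 91 to 86 in Fgb and 13 to 8 in Fgg. These 6 letters were also present in 27% of 32841 promoter windows of the same length, so their presence is common. The longer form CTGGGAA, which overlaps the core, was in the Fgb and Fgg windows and in 9.1% of all windows. The STAT pattern TTCNNNGAA was found once in Fga and once in Fgb (7.02% of all windows). The C/EBP pattern TTNCNNAA was found once in Fga and at 2 places in Fgb (36.9% of all windows). The HNF1 pattern GTTAAT was found once in Fga and once in Fgb, on the opposite strand (6.43% of all windows). TATAAA was in none of the 3 windows (12.4% of all windows). A match is a description of the letters and not a site that was shown to be bound.

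Across the series the arrays were alike in scale. Sample medians lay between 5.88 and 6.07 on the deposited log2 scale, and samples of a group correlated with r between 0.990 and 0.994 over all probe sets, against 0.975 to 0.993 between groups. Col4a5, the mutated gene, read 5.06 to 5.83 in wild type, 4.13 to 4.97 in Alport vehicle, 4.09 to 4.64 with losartan and 4.48 to 4.5 with metformin. No Alport sample reached the wild type range. Genes of the proximal tubule, the main cell of kidney cortex, read high in every sample, with a mean over 11 markers of 16.09 to 17.23.

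The γ chain gene Fgg showed the widest separation between wild type and Alport kidneys. Its log2 values were 7.24, 7.70 and 7.28 in the wild type samples 1, 2 and 3 (mean 7.41 ± 0.25, SD, n = 3) and 13.28, 12.35 and 13.45 in the Alport vehicle samples (13.03 ± 0.59, SD, n = 3). Every Alport vehicle sample lay far above every wild type sample. With losartan the values were 11.83, 9.16 and 10.66 (10.55 ± 1.34, SD, n = 3), and with metformin they were 13.70, 12.80 and 10.78 (12.43 ± 1.5, SD, n = 3). The losartan samples all lay below the Alport vehicle samples and above wild type, whereas the metformin samples spread from near the losartan values to above the highest Alport vehicle sample.

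Fga, which encodes the Aα chain from which thrombin releases fibrinopeptide A, read 8.83, 9.19 and 8.91 in wild type (8.98 ± 0.19, SD, n = 3) and 12.22, 11.47 and 12.09 in Alport vehicle (11.93 ± 0.40, SD, n = 3). It read 11.75, 9.37 and 10.54 with losartan (10.55 ± 1.19, SD, n = 3) and 13.47, 12.43 and 11.21 with metformin (12.37 ± 1.13, SD, n = 3). All Alport samples were above all wild type samples, but losartan sample 2 exceeded the highest wild type sample by little. Losartan sample 1 lay inside the Alport vehicle range, and metformin sample 3 lay below that range.

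Fgb, which encodes the Bβ chain, had the lowest separation. It read 3.77, 4.11 and 4.57 in wild type (4.15 ± 0.40, SD, n = 3), 6.89, 4.88 and 6.78 in Alport vehicle (6.18 ± 1.13, SD, n = 3), 6.64, 4.44 and 5.39 with losartan (5.49 ± 1.10, SD, n = 3) and 7.15, 5.73 and 5.79 with metformin (6.22 ± 0.80, SD, n = 3). The wild type values lay around the lower quartile of all deposited values, which was 4.18 to 4.25 in the 12 samples. The deposited values do not state which probe sets were above background. Alport vehicle sample 2 was close to the highest wild type sample, and losartan sample 2 was below it.

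**Figure D1:**
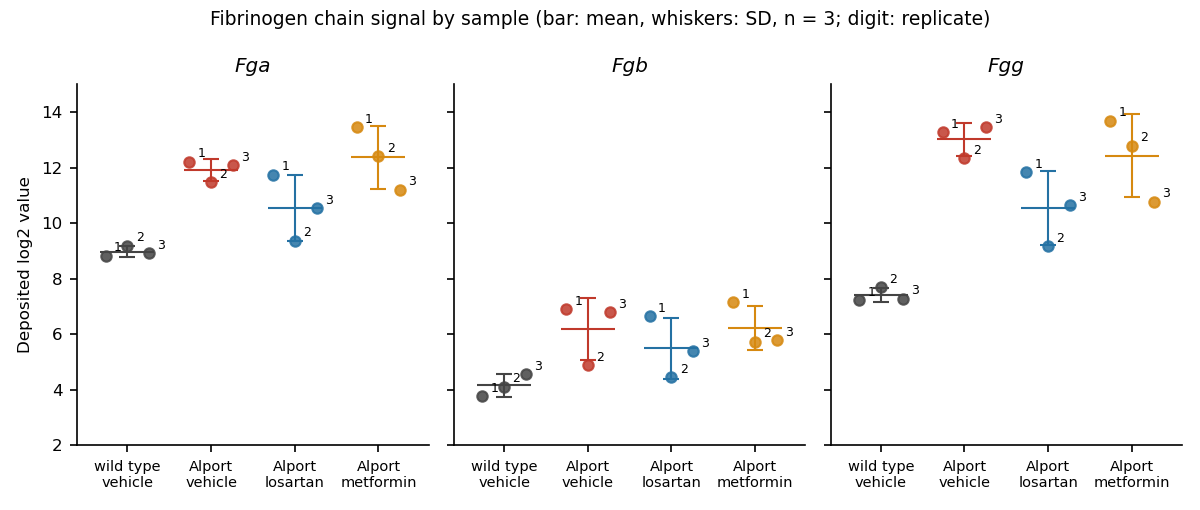
Deposited log2 value of Fga, Fgb and Fgg (vertical axis, log2) in each of the 12 samples by group (horizontal axis), with the group mean as a bar and the SD as whiskers (n = 3); digits are replicate numbers. Alport vehicle samples of Fgg sit between 12.35 and 13.45 and wild type samples between 7.24 and 7.70, while losartan and metformin samples are widely spread.

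The order of the group means was wild type, losartan, metformin, Alport vehicle for Fgg, and wild type, losartan, Alport vehicle, metformin for Fga and Fgb. For Fgg and Fga the first step of this order separated without overlap. The step from losartan to the next group overlapped for all 3 chains, and so did the step between Alport vehicle and metformin. For Fgb even wild type and losartan overlapped, in 1 of 9 pairs of samples.

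In Alport vehicle against wild type kidney, Fgg was higher by 5.62 ± 0.62 (log2 difference ± SE, n = 3 per group), or 49.2-fold. Fga was higher by 2.95 ± 0.51 (7.73-fold) and Fgb by 2.03 ± 0.54 (4.09-fold). The 3 genes were among the 14.2% of all 22206 probe sets whose Alport vehicle samples all exceeded all wild type samples, a share from which nothing is read because the genes were picked for this contrast. Leaving out 1 sample at a time gave 5.41 to 5.96 for Fgg, 2.80 to 3.18 for Fga and 1.68 to 2.69 for Fgb, where the highest value came without Alport vehicle sample 2.

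With losartan against Alport vehicle, the 3 chains were lower on average, and only Fgg separated without overlap. The log2 difference was -2.48 ± 0.62 for Fgg (5.57-fold lower), -1.37 ± 0.51 for Fga (2.59-fold lower) and -0.69 ± 0.54 for Fgb (1.62-fold lower). Non-overlap with losartan lower was seen for 11.3% of all probe sets. The values turned on single samples: they ran from -3.12 without losartan sample 1 to -1.78 without losartan sample 2 for Fgg, and from -1.97 to -0.78 without the same samples for Fga. For Fgb they ran from -1.35 without Alport vehicle sample 2 to -0.17 without losartan sample 2. Losartan kidneys remained above wild type by 3.14 ± 0.62 for Fgg (8.84-fold) and 1.58 ± 0.51 for Fga (2.98-fold), both without overlap, as for 8.4% of all probe sets. For Fgb the difference was 1.34 ± 0.54 and the groups overlapped. These values were lowest without losartan sample 1 and highest without losartan sample 2, from 2.50 to 3.84 for Fgg, 0.98 to 2.17 for Fga and 0.77 to 1.87 for Fgb.

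With metformin against Alport vehicle, none of the chains differed beyond the spread of the samples. The log2 differences were 0.44 ± 0.51 for Fga, 0.04 ± 0.54 for Fgb and -0.60 ± 0.62 for Fgg, and the groups overlapped for each, whereas 20.5% of all probe sets did not overlap in one direction or the other. The direction itself depended on 1 sample. It was -0.11 without metformin sample 1 and 1.02 without metformin sample 3 for Fga, and -1.24 and 0.22 without the same samples for Fgg. For Fgb it ran from -0.61 without Alport vehicle sample 2 to 0.39 without Alport vehicle sample 1. Metformin kidneys were above wild type by 5.02 ± 0.62 for Fgg (32.4-fold), 3.39 ± 0.51 for Fga (10.5-fold) and 2.07 ± 0.54 for Fgb (4.21-fold), each without overlap, as for 10.6% of all probe sets. Without metformin sample 1 the differences were 4.38 for Fgg, 2.84 for Fga and 1.61 for Fgb. The highest were 5.84 for Fgg and 3.97 for Fga without metformin sample 3 and 2.32 for Fgb without metformin sample 2.

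Metformin and losartan kidneys were also set against each other, since effects seen apart do not show a difference between the drugs. Fga was higher with metformin by 1.82 ± 0.51 (3.52-fold), Fgg by 1.88 ± 0.62 (3.67-fold) and Fgb by 0.73 ± 0.54 (1.66-fold). The groups overlapped for each chain, with metformin higher in 8, 8 and 7 of 9 pairs of samples, while 13.5% of all probe sets did not overlap in either direction. Leaving out 1 sample gave 1.23 without losartan sample 2 to 2.42 without losartan sample 1 for Fga, and 0.21 to 1.31 without the same samples for Fgb. For Fgg it gave 1.18 without losartan sample 2 to 2.70 without metformin sample 3. The 3 comparisons that use Alport vehicle share its 3 samples, and their values are therefore not independent.

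**Figure D2:**
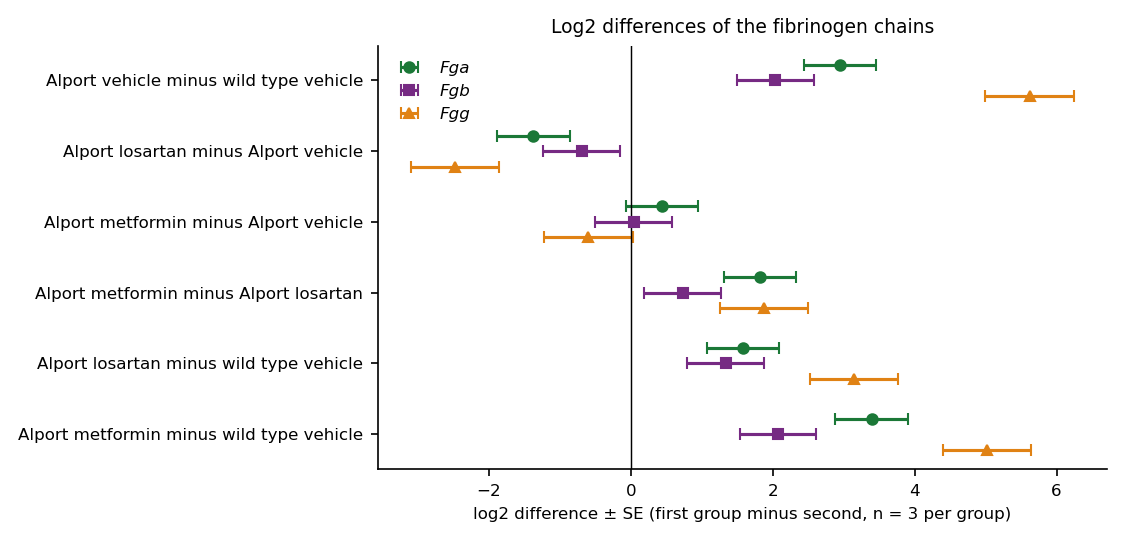
Log2 difference with its SE (horizontal axis) of Fga, Fgb and Fgg for the 6 comparisons (vertical axis), 3 samples per group. All 3 chains lie above 0 in each Alport group against wild type, all lie below 0 for losartan against Alport vehicle, and they lie on both sides of 0 for metformin against Alport vehicle.

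The chains did not move by equal amounts. Taken within each sample, the difference between Fgg and Fga was 2.67 log2 units larger in Alport vehicle than in wild type, and that between Fgg and Fgb was 3.59 larger, both without overlap between the groups. With losartan the difference between Fgg and Fga was -1.10 against Alport vehicle, and with metformin it was -1.04, again without overlap. Against Fgb, the Fgg difference was -1.78 with losartan, without overlap, and -0.64 with metformin, where the groups overlapped. Fgg thus stood lower relative to Fga in both drug groups, and lower relative to Fgb without overlap with losartan but not with metformin. The difference between Fga and Fgb was 0.92 larger in Alport vehicle than in wild type, without overlap. Against Alport vehicle it was -0.68 with losartan, without overlap, and 0.40 with metformin, with overlap. For metformin against losartan it was 1.08 without overlap, while those of Fgg with Fga (0.06) and Fgb (1.14) overlapped. How strongly each probe set responds to a given amount of RNA is not known, and its part in these differences was not tested.

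Within groups the chains varied together. Over the 12 samples, deviations from the group means correlated with r = 0.984 for Fga and Fgg, 0.814 for Fga and Fgb and 0.776 for Fgb and Fgg. These are descriptions over samples that share the same RNA extracts and arrays. Losartan sample 1 was highest and losartan sample 2 lowest for all 3 chains, Alport vehicle sample 2 was lowest for all 3, and metformin sample 1 was highest for all 3. Metformin sample 3 was lowest for Fga and Fgg, and metformin sample 2 was lowest for Fgb.

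The genes around fibrinogen were grouped in 7 lists by role: coagulation factors and their inhibitors, the plasminogen system, receptors that bind fibrinogen or fibrin, other acute-phase plasma proteins, interleukin-6 family signalling, transcription factors of fibrinogen promoters, and proteins with a fibrinogen-like domain. Of 119 genes listed, 108 were measured. A gene is called here when its limma p-value, adjusted by Benjamini-Hochberg over all 22206 probe sets, is below 0.05, and all adjusted p-values below are of this kind. In Alport vehicle against wild type, 37 of the 108 genes rose and 7 fell, with a median log2 difference of 0.21 against -0.03 over all probe sets. The background was 8.43% of all probe sets rising and 7.71% falling, which are 1871 and 1711 probe sets, or 1451 and 2842 when each sample was centred on its median.

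Coagulation genes moved in both directions in Alport kidney: 5 of 24 rose and 3 fell, against 8.43% and 7.71% of all probe sets. Serpina10, the protein Z-dependent protease inhibitor that blocks factor Xa, read 4.44, 4.72 and 4.34 in wild type and 9.41, 8.65 and 9.52 in Alport vehicle, groups that lie far apart. It rose by 4.69 ± 0.46 (adjusted p = 6.81e-06). Pros1, which encodes protein S, a cofactor of activated protein C, rose by 2.57 ± 0.33 (adjusted p = 7e-05). F13b, the carrier subunit of the fibrin-crosslinking factor XIII, changed by -1.76 ± 0.25 (adjusted p = 0.000166), and Proc, which encodes protein C, by -1.22 ± 0.20 (adjusted p = 0.000588). F2, which encodes prothrombin and was named after its value was seen, was not called (-0.36, adjusted p = 0.425). In the plasminogen system 5 of 11 genes rose and 1 fell. The tissue plasminogen activator gene Plat rose by 1.98 ± 0.17 (adjusted p = 1.56e-06), Anxa2, part of a cell-surface plasminogen receptor, by 3.23 ± 0.29 (adjusted p = 3.11e-06) and Thbs1, which encodes thrombospondin 1, by 2.10 ± 0.20 (adjusted p = 4.91e-06). Serpinf2, the main plasmin inhibitor, was lower (-1.71 ± 0.22, adjusted p = 6.29e-05).

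Of the 12 receptor genes, 7 rose and none fell in Alport kidney, with 10 at an unadjusted limma p under 0.05. The shares over all probe sets were 8.43% rising and 7.71% falling. Itgam, the αM subunit of the leukocyte fibrinogen receptor, rose by 2.91 ± 0.43 (adjusted p = 0.000215), its partner Itgb2 by 1.40 ± 0.32 (adjusted p = 0.00562), Icam1, an adhesion molecule that binds fibrinogen, by 1.36 ± 0.27 (adjusted p = 0.00191) and Itgb1 by 1.04 ± 0.18 (adjusted p = 0.000811). Other acute-phase genes rose in 6 of 18 cases and fell in none. The remaining 12 were not called. Of these, Saa1 (log2 difference 0.08), Saa2 (0.09), Orm1 (0.05) and Crp (-0.20) were named after their values were seen. Lcn2, a siderophore-binding protein of injured tubules, rose by 9.05 ± 0.68 (adjusted p = 5.21e-07), Serpina3n, a serine protease inhibitor, by 4.15 ± 0.42 (adjusted p = 8.46e-06), Cp, the copper carrier ceruloplasmin, by 2.98 ± 0.35 (adjusted p = 3.13e-05) and the lipopolysaccharide-binding protein gene Lbp by 2.42 ± 0.38 (adjusted p = 0.000339).

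Of 20 genes of interleukin-6 family signalling, 8 rose and none fell, where 8.43% of all probe sets rose and 7.71% fell. Osmr, the oncostatin M receptor, read higher by 2.70 ± 0.31 (adjusted p = 2.21e-05). Stat3 itself read 10.35, 10.53 and 9.84 in wild type and 12.18, 11.97 and 12.53 in Alport vehicle, without overlap (1.99 ± 0.27, adjusted p = 8.62e-05). Bcl3, a transcriptional co-regulator induced by this pathway, rose by 2.52 ± 0.34 (adjusted p = 8.77e-05) and the cytokine gene Lif by 1.90 ± 0.27 (adjusted p = 0.000136). The shared receptor subunit Il6st was not called (0.05 ± 0.18, adjusted p = 0.9), and neither was Il6, named after its value was seen (-0.03, adjusted p = 0.956). Socs3, also named after its value was seen, was not called either (0.28, adjusted p = 0.388). Among 7 measured transcription factors of fibrinogen promoters, 2 rose and 2 fell. Cebpd, an acute-phase C/EBP factor, read 5.74, 6.06 and 6.21 in wild type and 8.08, 8.03 and 8.10 in Alport vehicle (2.07 ± 0.17, adjusted p = 1.22e-06). The hepatocyte and proximal tubule factor Hnf4a was lower (-1.31 ± 0.16, adjusted p = 4.16e-05), as was Nr1h4, the bile acid receptor FXR (-0.84 ± 0.20, adjusted p = 0.00785). Cebpb rose by 0.53 ± 0.17 (adjusted p = 0.0451), a call lost in 15 of 19 alternatives, including without any 1 of the wild type or Alport vehicle samples (adjusted p 0.075 to 0.139), without losartan sample 2 or 3 (0.0551, 0.0546) and without metformin sample 1 (0.0524). Of 17 proteins with a fibrinogen-like domain, 4 rose and 1 fell: the matrix gene Tnc, which encodes tenascin C, rose by 5.01 ± 0.35 (adjusted p = 2.89e-07), and Mfap4 (1.71), Fgl2 (2.01) and Tnn (1.56) rose as well.

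With losartan the direction was mostly the opposite: 6 of the 108 genes rose and 20 fell against Alport vehicle, with a median of -0.22 against 0.01 over all probe sets. The background was 3.79% rising and 4.11% falling, or 842 and 913 probe sets, and 1238 and 724 after centring on the median. The 20 falling genes were fewer without Alport vehicle sample 1 (11), without Alport vehicle sample 3 (12), without losartan sample 2 (13) and without losartan sample 3 (11). Serpina10 read 7.70, 6.54 and 6.17 with losartan, all below the Alport vehicle samples and above wild type (-2.39 ± 0.46, adjusted p = 0.00566). F13b (1.53 ± 0.25, adjusted p = 0.00219) and Proc (1.00 ± 0.20, adjusted p = 0.00771) rose. F5, which encodes factor V, rose by 1.31 ± 0.29 (adjusted p = 0.0107, and 0.0502 without losartan sample 3). In the plasminogen system 1 of 11 genes rose and 4 fell: Thbs1 (-1.43, adjusted p = 0.000684), Anxa2 (-1.56, adjusted p = 0.00471), the urokinase receptor gene Plaur (-1.46, adjusted p = 0.00602) and Plat (-0.80, adjusted p = 0.00828) fell. Serpinf2 rose (0.89 ± 0.22, adjusted p = 0.0202), a call lost without Alport vehicle sample 1 or 3 or losartan sample 1 or 2 (adjusted p 0.0637 to 0.106) and with only the groups compared (0.0506).

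In the other lists 2 of 12 receptor genes, 2 of 18 acute-phase genes and 4 of 20 interleukin-6 family genes were called lower with losartan. So were 4 of 17 genes with a fibrinogen-like domain, and none of those 4 lists had a gene called higher. The shares over all probe sets were 3.79% higher and 4.11% lower. In lists this short, no gene called higher lies near that share and is not read as a result. Serpina3n fell (-2.43 ± 0.42, adjusted p = 0.0028), as did Lif (-1.30 ± 0.27, adjusted p = 0.00777), Cebpd (-1.27 ± 0.17, adjusted p = 0.000541) and Tnc (-2.53 ± 0.35, adjusted p = 0.000708). The Cebpd values with losartan, 7, 6.58 and 6.82, lay between the wild type and Alport vehicle samples. Hnf4a (1.22 ± 0.16, adjusted p = 0.00053) and Nr1h4 (1.29 ± 0.20, adjusted p = 0.00135) rose. Stat3 read 11.20, 11.12 and 11.40 with losartan, below each Alport vehicle sample, and fell by 0.99 ± 0.27 (adjusted p = 0.0312). This call was lost without Alport vehicle sample 1 (0.0867) or 3 (0.115) or any losartan sample (0.0593 to 0.117). Bcl3 (-1.22, adjusted p = 0.0358) and Icam1 (-1.13, adjusted p = 0.0162) were called too, but not without Alport vehicle sample 1 or 3 or losartan sample 2 or 3 (adjusted p 0.0964 to 0.142 for Bcl3 and 0.0528 to 0.0757 for Icam1). The fall of Cp (-1.28, adjusted p = 0.0352) was lost without any losartan sample (0.0562 to 0.121) and without Alport vehicle sample 1 (0.178) or 3 (0.0889). A trended robust prior lost it too (0.0753). Lcn2 spread widely with losartan, at 15.55, 13.13 and 11.80, and losartan sample 1 lay within the Alport vehicle range of 14.23 to 15.72, as it did for Fga.

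With metformin fewer genes around fibrinogen differed from Alport vehicle: 6 of 108 rose and 7 fell, with a median of -0.11 against -0.01 over all probe sets. The background was 2.67% rising and 2.27% falling, or 592 and 504 probe sets, and 827 and 381 after centring on the median. Without Alport vehicle sample 1 or metformin sample 3 the count of falling genes was 2, without Alport vehicle sample 2 it was 12, and without metformin sample 3 the count of rising genes was 1. Cebpd fell by 1.24 ± 0.17 (adjusted p = 0.00143), with metformin values of 6.78, 6.93 and 6.79, and Tnc fell by 2.10 ± 0.35 (adjusted p = 0.00456). Both calls held in every alternative run.

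Serpina3n was lower with metformin (-1.81 ± 0.42, adjusted p = 0.0226), but not called without Alport vehicle sample 1 or 3 or metformin sample 3 (adjusted p 0.0692 to 0.1), nor with only the groups compared in the fit (0.0806). Without metformin sample 3 the Serpina3n difference was -1.13. F5 (1.45 ± 0.29, adjusted p = 0.00955) and the kininogen genes Kng1 (0.96 ± 0.21, adjusted p = 0.0165) and Kng2 (0.88 ± 0.17, adjusted p = 0.0078) rose, and each call was lost without metformin sample 3 (adjusted p 0.0529 to 0.062). Hnf4a rose by 0.83 ± 0.16 (adjusted p = 0.00889, and 0.0503 with only the groups compared in the fit). None of the 12 receptor genes was called in limma, with 4 at an unadjusted p under 0.05. The shares over all probe sets were 2.67% rising and 2.27% falling, so no call among 12 genes lies near them. Stat3 read 12.30, 12.34 and 11.25 with metformin and overlapped Alport vehicle. Serpina10 read 10.23, 8.95 and 7.82, spread around the Alport vehicle samples like the chains. Between metformin and losartan none of the 108 genes was called by limma, with 16 at an unadjusted p under 0.05, and 0.045% of all probe sets (10) were called in either direction.

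**Figure D3:**
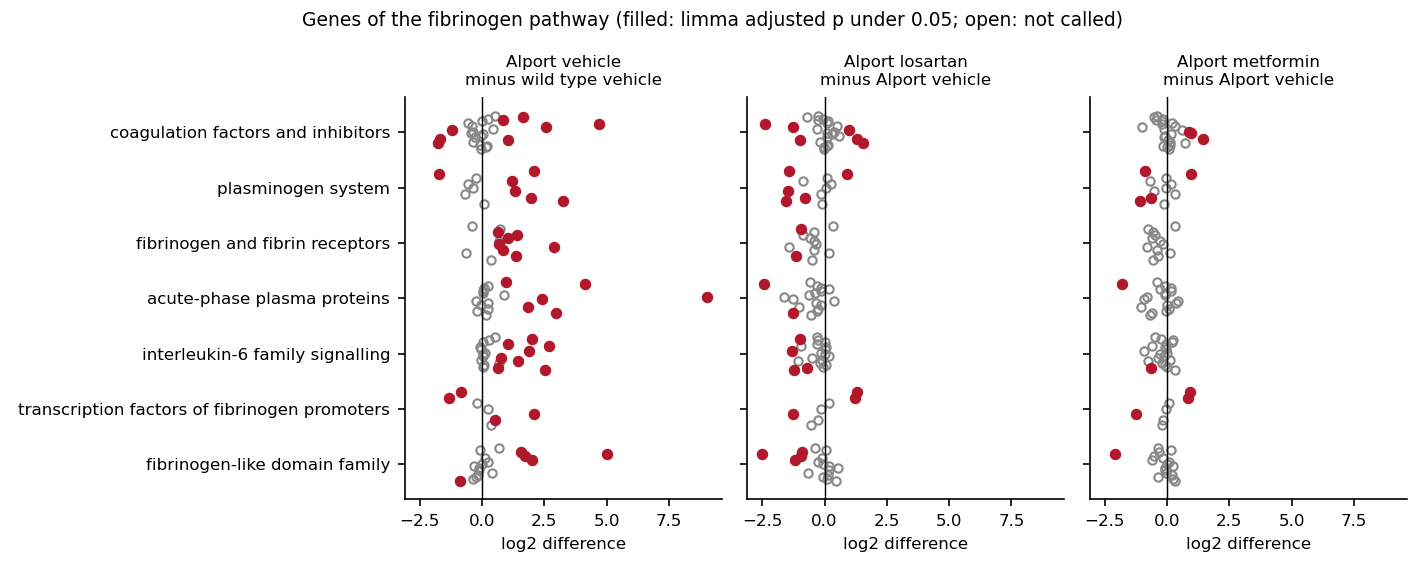
Log2 difference (horizontal axis) of each measured gene in the 7 lists (vertical axis) for Alport vehicle minus wild type vehicle, Alport losartan minus Alport vehicle and Alport metformin minus Alport vehicle; each point is a gene, filled where the limma adjusted p is under 0.05. In the first panel 37 genes are called higher and 7 lower, in the second 6 and 20, and in the third 6 and 7.

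Hepatocytes, the main source of plasma fibrinogen, were checked through 20 marker genes. In Alport vehicle against wild type 2 rose and 4 fell, where 8.43% of all probe sets rose and 7.71% fell. Alb (albumin) was lower (-1.29 ± 0.25, adjusted p = 0.00173), as was Apoh (-1.88 ± 0.28, adjusted p = 0.000214), Ttr (transthyretin) was higher (1.19 ± 0.28, adjusted p = 0.0069) and Apoa1 was not called (0.13, adjusted p = 0.782). The mean log2 value over the 20 markers was 6.29 to 6.39 in wild type, 5.97 to 6.16 in Alport vehicle, 6.23 to 6.35 with losartan and 6.11 to 6.24 with metformin, and the log2 of their summed level was 15.26 to 15.47, 15.56 to 15.88, 15 to 15.43 and 14.45 to 14.77. The 3 Alport vehicle means were lower than each wild type mean, while their summed level was higher. The sum weighs bright genes most. Ttr, the brightest marker, had means of 14.16, 15.34, 14.14 and 13.03 in the same group order. Apob, named after its value was seen, had means of 14.36, 13.56, 14.11 and 13.80. Of the 20 markers, 9 stayed under 5.88, the lowest sample median, in every sample: Apoa1, Ahsg, Cps1, Tdo2, Cyp8b1, C9, Vtn, Slc10a1 and Slco1b2. With losartan 2 of the 20 markers rose and 1 fell: Alb (1.28 ± 0.25, adjusted p = 0.00567) and Apoh (1.44 ± 0.28, adjusted p = 0.00566) were higher, and Ttr was lower (-1.21 ± 0.28, adjusted p = 0.0143), a call lost without Alport vehicle sample 1 (0.0682) or losartan sample 2 (0.0811). With metformin 2 rose and 1 fell as well, with Alb higher (1.53 ± 0.25, adjusted p = 0.00371) and Ttr lower (-2.31 ± 0.28, adjusted p = 0.000747). The shares over all probe sets were 3.79% rising and 4.11% falling with losartan, and 2.67% and 2.27% with metformin. None of 6 platelet markers was called in Alport vehicle against wild type, with 1 at an unadjusted p under 0.05 in the limma fit.

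Markers of injured tubule, macrophages and fibroblasts were higher in Alport kidney, as the chains were. In Alport vehicle against wild type 13 of 13 injured tubule markers, 8 of 9 macrophage markers and 6 of 6 fibroblast markers rose, and 9 of 11 proximal tubule markers fell. Over all probe sets 8.43% rose and 7.71% fell. Havcr1 (KIM-1), which is switched on in injured proximal tubule, rose by 7.62 ± 0.56 (adjusted p = 4.59e-07; 6.97 without Alport vehicle sample 1), the macrophage lysozyme gene Lyz2 by 6.31 ± 0.49 (adjusted p = 7.1e-07) and the collagen gene Col3a1 by 6.12 ± 0.31 (adjusted p = 1.04e-08). The mean log2 value of injured tubule markers was 7.19 to 7.27 in wild type, 10.17 to 11.15 in Alport vehicle, 8.84 to 9.40 with losartan and 8.73 to 10.58 with metformin, and the log2 of their summed level was 14.88 to 15.19, 17.67 to 18.24, 16.16 to 17.15 and 16.59 to 18.39. That of macrophage markers was 6.06 to 6.46, 8.35 to 9.91, 7.43 to 7.86 and 7.65 to 9.10 as a mean and 10.88 to 10.92, 12.80 to 14.64, 11.65 to 11.98 and 11.98 to 13.33 summed. The sample order repeated that of the chains in part: Alport vehicle sample 2 was lowest in both marker means, losartan sample 1 was highest in both, and metformin sample 1 was highest and metformin sample 3 lowest in both. Losartan sample 2, lowest of its group for the chains, was lowest in the macrophage mean, but losartan sample 3 was lowest in the injured tubule mean. Fibroblast markers had a mean of 7.47 to 7.85 in wild type, 11.62 to 11.94 in Alport vehicle, 9.19 to 9.57 with losartan and 9.44 to 10.50 with metformin, and a summed level of 11.57 to 11.87, 15.37 to 15.79, 13.45 to 14.12 and 13.54 to 14.25. Their mean was lowest in Alport vehicle sample 1 and highest in metformin sample 2 of those groups, unlike the chains. Losartan sample 1 had the highest and losartan sample 2 the lowest mean of its group, as for the chains. Metformin sample 3 had the lowest mean of its group, as for Fga and Fgg. Their summed level was lowest in Alport vehicle sample 2 and highest in losartan sample 1 and metformin sample 1 of those groups, like the chains. The part of these cells in the values of the chains was not tested, and in whole kidney a change in the number of cells of a type and a change in RNA per cell cannot be told apart.

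With losartan 9 of 13 injured tubule markers, 5 of 9 macrophage markers and 6 of 6 fibroblast markers fell, and 5 of 11 proximal tubule markers rose. Over all probe sets 3.79% rose and 4.11% fell. The injury-response factor Sox9 fell by 2.15 ± 0.36 (adjusted p = 0.00209) and Col1a2 by 2.94 ± 0.31 (adjusted p = 0.000254). With metformin 6 of 6 fibroblast markers fell, including Col1a2 (-2.08 ± 0.31, adjusted p = 0.00234), and 3 of 11 proximal tubule markers rose. With metformin, injured tubule and macrophage markers had median log2 differences of -0.80 and -0.71, against -0.01 over all probe sets. At an unadjusted p under 0.05 in the limma fit were 7 of 13 and 4 of 9. Called lower were 1 of 13 injured tubule markers and 1 of 9 macrophage markers. Over all probe sets 2.67% rose and 2.27% fell. The injured tubule marker was Sox9 (-1.82 ± 0.36, adjusted p = 0.00903, and 0.053 without Alport vehicle sample 1). The macrophage marker was Mrc1 (-1.75 ± 0.46, adjusted p = 0.0388), a call lost in 11 of 19 alternatives. It was lost without sample 2 or 3 of wild type, losartan or metformin and without Alport vehicle sample 1 or 3 (adjusted p 0.051 to 0.182). It was also lost with a trended robust prior (0.105), array weights (0.053) and only the groups compared (0.129). Without Alport vehicle sample 2 the Mrc1 difference was -2.41.

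The genes next to the fibrinogen cluster on the chromosome were read for comparison, 3 measured genes on either side. On the Fgg side Lrat (-0.44, adjusted p = 0.181), Rbm46 (0.06, adjusted p = 0.905) and Npy2r (-0.48, adjusted p = 0.136) were not called in Alport vehicle against wild type. On the Fgb side the closest gene, the splicing factor gene Plrg1, read 10.26 to 10.81 over all 12 samples and was not called (-0.04 ± 0.16, adjusted p = 0.924). The innate immune receptor gene Tlr2, the third gene on that side, rose by 2.75 ± 0.30 (adjusted p = 1.51e-05), a call that held in every alternative. It fell with losartan (-1.31 ± 0.30, adjusted p = 0.0137), which was lost without Alport vehicle sample 1 (0.0757) or losartan sample 2 (0.0554). Sfrp2, between them, rose by 0.78 ± 0.24 (adjusted p = 0.0314), a call lost without wild type sample 1 or 3 or Alport vehicle sample 2 or 3 (adjusted p 0.0626 to 0.131), and also with median centring (0.065), quantile normalization (0.0848) and only the groups compared (0.0505). With metformin Sfrp2 was lower than in Alport vehicle (-1.06 ± 0.24, adjusted p = 0.0173). This call was lost without Alport vehicle sample 3 or metformin sample 2 or 3 (adjusted p 0.0535 to 0.0759) and with only the groups compared (0.0509).

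The genes whose pattern over the 12 samples was most like the mean of the 3 chains were Serpina10 (Pearson r = 0.967), Sfn (0.965), Cd24a (0.960), Tsc22d1 (0.954), Clu (0.954), Cx3cr1 (0.954), Mpeg1 (0.950) and C1qc (0.947). Cd24a and Clu are known as markers of injured or progenitor-like tubule cells, and Cx3cr1, Mpeg1 and C1qc as genes of macrophages. Clu, for example, read 14.63 to 15.02 in wild type, 17.33 to 17.53 in Alport vehicle, 15.73 to 16.35 with losartan and 18.05, 17.48 and 16.29 in metformin samples 1, 2 and 3, the same sample order as Fga and Fgg with metformin. In all, 109 of 22206 probe sets had r above 0.9, and these correlations carry the differences between the groups. When each group's mean was removed first, the closest genes were Map4k1 (r = 0.949), Itgal (0.938), H2-M3 (0.935), Spi1 (0.931), Myh9 (0.919), Asxl3 (0.918), Set (0.917) and Ccm2 (0.917), with 18 probe sets above 0.9. Itgal, an integrin subunit of leukocytes, and Spi1, the myeloid transcription factor PU.1, are genes of blood-derived cells. These correlations are descriptions over 12 samples that share extract and array with the chains, picked as the highest of all probe sets.

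**Figure D4:**
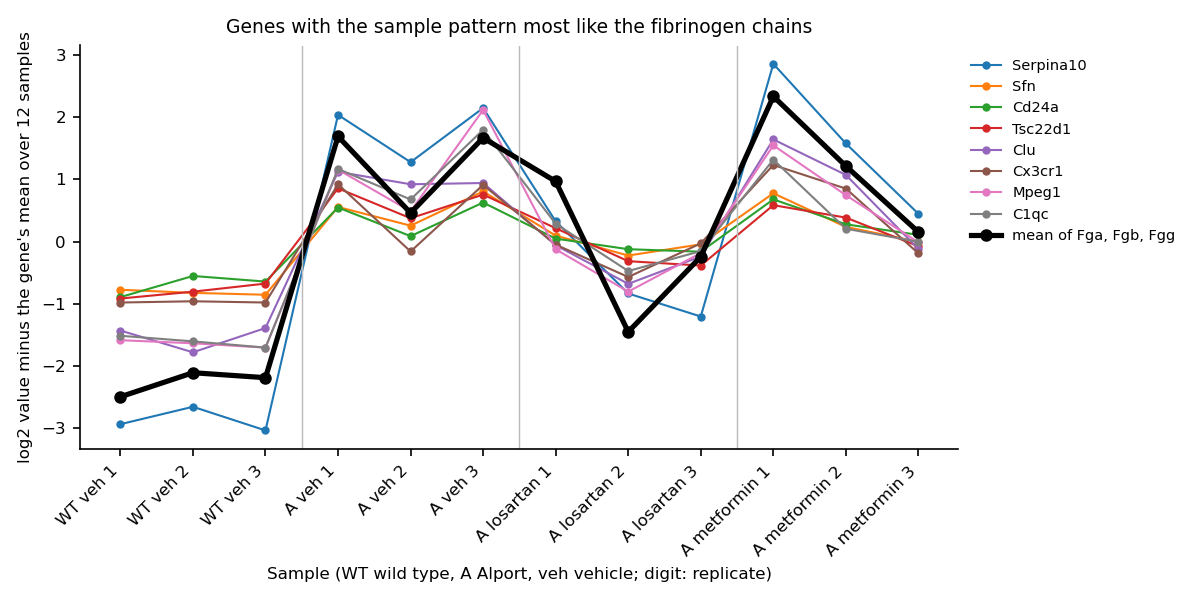
Log2 value minus the gene's own mean over the 12 samples (vertical axis) in each sample (horizontal axis) for the mean of Fga, Fgb and Fgg (thick black line) and the 8 genes with the highest correlation with it (thin lines); vertical lines divide the groups. The 3 wild type samples are lowest for Serpina10, which has r = 0.967 with the mean of the chains, and metformin sample 1 is the highest metformin sample for the chains and for Serpina10.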

How the data were processed

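RNA from whole kidney was labelled as biotinylated single-stranded DNA and hybridised to Clariom S arrays, per the labels' protocols. The deposited values hold 1 log2 value per probe set and sample, made by the authors; the log2 scale was read from the values. Per the submitters' processing notes, Transcriptome Analysis Console 4.0 was used; how background was corrected and arrays were normalized and summarised is not given in the sources. No count of reads exists for arrays, and the number of arrays limits the precision.

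Names came from the platform annotation, updated by Entrez gene identifier against RefSeq (GRCm38.p6): 19572 had 1 symbol, covering 19505 symbols, and 2634 had none. Where a gene had several probe sets, the one with the highest mean was used. Groups were taken from the titles. The deposited log2 values were fitted with limma 3.58.1 in R 4.3.3 (1 mean per group, all 12 samples, 8 residual degrees of freedom, empirical Bayes), with Benjamini-Hochberg adjustment over 22206 probe sets and a threshold of 0.05; no filter was applied. The script was tested on simulated data. Log2 differences of the chains carry limma's SE without a p-value. Fold changes are 2 to the power of the log2 difference.

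The members and lists were chosen with earlier results of these data known. Named genes were up to 4 called genes of each related list (smallest p) and 2 of each cell type list per comparison, the member with the highest mean of each list, Alb, Apoa1 and Ttr, 3 measured neighbours on either side, and 8 genes for each of 2 measures of likeness; not every gene the rule allows is printed. Other names are marked in the text. Alternatives were median centring, quantile normalization, a filter on the dimmest 33%, a trended robust prior, array weights, only the groups compared, the replicate number as a block, and leaving out each sample. Of 18 pairs of samples with the same replicate number in different groups, deviations from group means correlated between -0.14 and 0.08 and 0 exceeded 0.1, so the numbers were not taken to pair samples. No 2 samples held identical values. Promoter windows came from RefSeq, and all 3 genes matched. Proteins of the chains are not analysed here.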

Additional observations from a re-analysis of the deposited data

How the results depend on the processing

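For Fga, Fgb and Fgg the alternatives run were centring, quantile normalization, the replicate block and leaving out each sample. The other alternatives, array weights among them, were not run for the chains. Under those run, the log2 differences kept their direction in Alport vehicle against wild type and in losartan against Alport vehicle. Under centring, quantile normalization and the replicate block, 36 of 36 differences in the 4 comparisons moved by less than 1 SD of the samples. The replicate block could not move a difference, because each group holds replicates 1 to 3, so its part of the 36 shows nothing. Sample medians lay close together, which left centring little room to move a difference by 1 SD. Median centring moved the median over all probe sets from -0.03 to -0.17 in Alport vehicle against wild type. Of 56 counts of called genes in the 7 related lists under alternatives other than leaving out a sample, 52 stayed within 1.5 times and 4 did not: 11 falling with median centring in Alport vehicle against wild type, and, for metformin against Alport vehicle, 3 rising and 2 falling with only the groups compared and 4 falling with array weights. Over all probe sets, metformin against Alport vehicle had 232 rising and 178 falling with only those groups, against 592 and 504 in the main fit. With array weights, where all 12 samples were kept, it had 454 and 356. Leaving out 1 sample gave 31 to 39 rising and 6 to 8 falling genes in Alport vehicle against wild type, 5 to 7 and 11 to 27 for losartan, 1 to 6 and 2 to 12 for metformin, and 0 to 2 and 0 to 0 for metformin against losartan, where the 2 came without metformin sample 3. With the replicate block the counts were 35 and 7 for Alport vehicle against wild type, 22 falling for losartan and 7 falling for metformin; this changed the calls of Cebpb (adjusted p = 0.0611, limma) and of Clcf1 with metformin (0.0642) among the named genes. Of the named calls, 39 of 42 in Alport vehicle against wild type, 23 of 39 for losartan and 8 of 23 for metformin held in every alternative; none changed direction. The cause of these losses was not tested. With 3 samples in a group and wide spread among losartan and metformin samples, the 2 drug groups overlapped for each chain. The mean of each chain stayed higher with metformin whichever sample was left out, and no test of this difference was run.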
